A study of Rattus norvegicus with 16 samples.

Results

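Glucocorticoid and stress responsive genes were followed as a set of 10 genes out of the 15037 named genes on the array: Sgk1, Ddit4, Nfkbia, Fkbp5, Tsc22d3, Pdk4, Zbtb16, Cdkn1a, Lcn2 and Errfi1. They were selected by gene symbol, with the differences between the anesthetics and their controls already known, and each was represented by 1 probe set. Because these differences helped to choose the genes, they are given here as a description with no test, while differences between brain regions, which the choice did not use, were tested.

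Glucocorticoids are adrenal steroid hormones that enter cells, bind the glucocorticoid receptor and carry it to DNA, where it switches a set of genes on within an hour or so. Several of the genes followed here belong to that set in many tissues, brain included, and encode brakes: on the receptor itself (Fkbp5), on the inflammatory factor NF-kB (Nfkbia, Tsc22d3), on growth signalling (Ddit4, Errfi1) and on the cell cycle (Cdkn1a). Most also answer to other inputs, among them lack of oxygen, fasting, DNA damage and cytokines, so a level of any of them does not name the signal behind it.

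The arrays measured 4 brain regions of male Wistar rats aged 8 to 10 weeks: the lateral habenula (LHb) and medial habenula (MHb), a pair of small nuclei above the thalamus, and 2 hindbrain nuclei, the solitary (Sol) and the medial vestibular (MVe). Rats were treated for 60 minutes with 2.4% sevoflurane, an inhaled anesthetic, or with O2 alone as its control, or with propofol, an intravenous anesthetic, or Intralipos, its 10% lipid vehicle, as the control of propofol. Propofol and Intralipos were infused at 36 mg/kg/hr, preceded by a 10 mg/kg bolus, and the gas in all 4 groups was 40% oxygen, at a flow of 6 L/min. Tissue cut by laser from 1 region under 1 treatment went on each of the 16 arrays, so a group is 4 arrays from 4 regions and a region is 4 arrays from 4 treatments. The labels do not say which regions came from the same rat, nor whether rats were pooled, and the SDs below are spreads over regions or treatments, not over animals.

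Values are log2 signals as deposited, a scale taken from their range of 2.47 to 19.9, so 1 unit is a doubling. The mean over all probe sets was 7.20 to 7.21 in the sevoflurane and O2 arrays and 6.97 to 6.99 in the propofol and Intralipos arrays. Whether the sets were normalized separately is not stated in the labels. Sevoflurane minus O2 and propofol minus Intralipos lie within a set. Between sets, Intralipos minus O2 had a median of -0.21 over all genes as deposited and 0.02 after quantile normalization of all arrays, and there treatment and set cannot be told apart. Marker genes were set against the region labels. All 7 medial habenula markers were lower in LHb than in MHb, but how far varied: Chat averaged 6.29 ± 0.39 in LHb and 11.55 ± 0.45 in MHb (SD, n = 4 arrays each), while Gpr151 averaged 14.04 in LHb and 16.30 in MHb, Nr4a2 14.75 and 16.23, and Chrna3 14.87 and 18.52, so these were high in LHb too. All 4 hindbrain markers were highest in Sol, but in MVe only some stood clear of the habenula: Hoxa2 averaged 8.60 in MVe and 4.21 in LHb, against 4.03 and 3.52 for Hoxb4 and 6.43 and 6.03 for Hoxb5.

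Sgk1, Ddit4 and Nfkbia had the largest mean treatment differences of the members, and their promoters are shown so that the words they hold can be compared. They were chosen after their values were seen. The letters are the 250 bases before the start in RefSeq's GRCr8 assembly, 5′ to 3′ on the gene's strand, with motif matches in capitals. Nfkbia lies at chr6:78597073-78597322, minus strand, and its capitals are a kappaB core, the DNA word of NF-kB, read on both strands 31 to 22 bases before the start. Ddit4 lies at chr20:28437038-28437287, minus strand, and its capitals are, in order, the hypoxia element ACGTG, 138 to 134 bases before the start, and ATTGG at 121 to 117 and at 88 to 84, the reverse of the CCAAT box. Of 3 Sgk1 starts in the table, those at chr1:24807232-24807481 and chr1:24804832-24805081, minus strand, hold the TATA box TATAAA, which positions RNA polymerase, 55 to 50 and 33 to 28 bases before the start.
Nfkbia: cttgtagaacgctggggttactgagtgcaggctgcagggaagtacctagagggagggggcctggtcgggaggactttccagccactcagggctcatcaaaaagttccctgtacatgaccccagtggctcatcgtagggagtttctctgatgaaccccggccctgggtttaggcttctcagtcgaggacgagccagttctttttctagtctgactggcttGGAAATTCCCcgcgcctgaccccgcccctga
Ddit4: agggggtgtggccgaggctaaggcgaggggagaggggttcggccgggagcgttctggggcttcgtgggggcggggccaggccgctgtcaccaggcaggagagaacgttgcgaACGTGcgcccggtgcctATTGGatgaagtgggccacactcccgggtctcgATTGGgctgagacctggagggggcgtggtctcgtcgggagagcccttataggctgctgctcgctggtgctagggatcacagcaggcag
Sgk1, first start: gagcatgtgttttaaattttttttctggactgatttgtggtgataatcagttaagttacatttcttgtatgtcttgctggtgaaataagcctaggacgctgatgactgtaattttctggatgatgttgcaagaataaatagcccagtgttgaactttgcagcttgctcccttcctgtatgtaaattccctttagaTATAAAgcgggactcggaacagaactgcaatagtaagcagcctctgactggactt
Sgk1, another start: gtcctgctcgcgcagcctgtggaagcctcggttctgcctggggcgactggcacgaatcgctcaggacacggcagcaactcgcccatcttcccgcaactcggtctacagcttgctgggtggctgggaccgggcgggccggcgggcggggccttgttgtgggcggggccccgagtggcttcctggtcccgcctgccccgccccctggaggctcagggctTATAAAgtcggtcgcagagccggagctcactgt

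Both strands were searched for each word, and the shares are of 33469 promoter windows of the same length. A kappaB core (GGGACTTTC, GGGAATTTC or GGAAATTCC) was in 0.729% of them, the hypoxia element in 16.6%, CCAAT in 34.0% and TATAAA in 12.9%. The full glucocorticoid response element (AGAACA, any 3 bases, TGTTCT) was in 0.012% of windows and its half-site AGAACA in 17.5%, and neither was in any of the 13 windows of the 9 members that the table holds. Those letters may lie outside these windows. Of the other members, Tsc22d3 held a match to the FoxO word GTAAACA (3.21% of windows) and 2 matches to the CRE half-site TGACG (18.2%), which Errfi1 and Cdkn1a held once each. Errfi1 also held a TATA box, a CCAAT box and the hypoxia element, which overlaps its CRE half-site. Tsc22d3 held a TATA box and CCAAT boxes, and Pdk4 and Fkbp5 a CCAAT box each. The E-box CACGTG (5.59%), AP-1 word TGANTCA (6.34%) and full CRE TGACGTCA (1.59%) were in none of the 13.

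**Figure D1:**
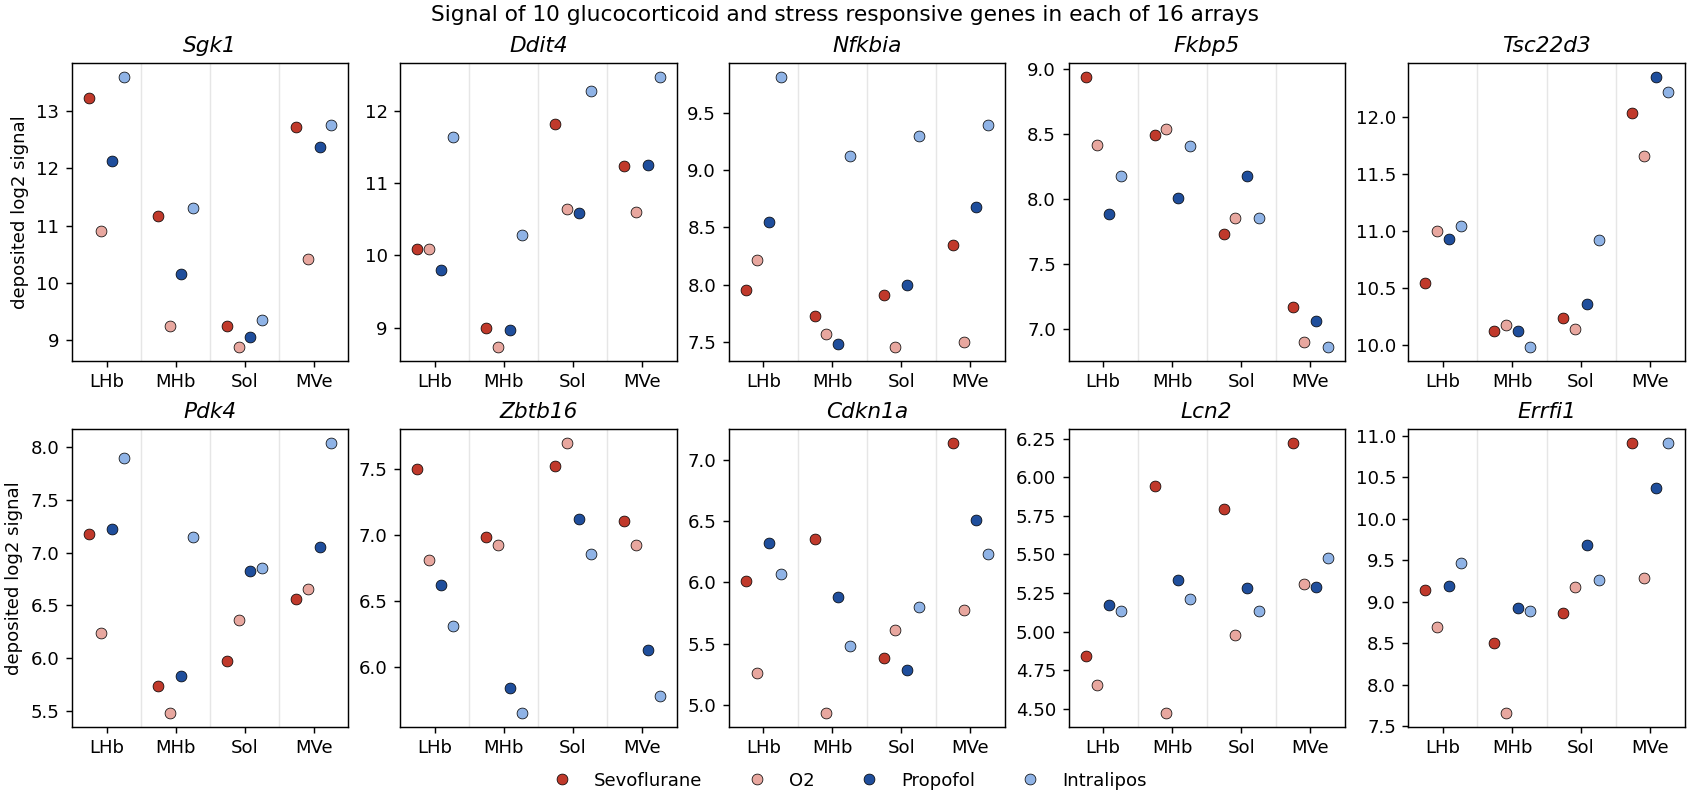
Deposited log2 signal (vertical axes, a scale of its own for each gene) of the 10 genes in each region (horizontal axes), 1 point per array, coloured by treatment. For Sgk1, Ddit4, Nfkbia and Pdk4 the Intralipos point is the highest of its region in 4 of 4 regions, and for Sgk1 the O2 point is the lowest in 4 of 4.

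The kinase gene Sgk1 and the growth brake Ddit4 showed the widest treatment differences. Sgk1 encodes a kinase that glucocorticoids and mineralocorticoids induce and that acts on ion channels and FoxO factors. In the order LHb, MHb, Sol and MVe, its log2 signal was 13.23, 11.16, 9.25 and 12.73 with sevoflurane, against 10.90, 9.24, 8.87 and 10.41 with O2. It was 12.14, 10.16, 9.05 and 12.38 with propofol, against 13.61, 11.32, 9.36 and 12.77 with Intralipos. Within each region Intralipos was highest, then sevoflurane, then propofol, and O2 was lowest. Sevoflurane minus O2 was 2.33, 1.92, 0.38 and 2.32 by region, a mean of 1.74 ± 0.93 (SD, n = 4 regions) or 3.33-fold, and propofol minus Intralipos was -1.47, -1.16, -0.31 and -0.39, a mean of -0.83 ± 0.57. The Sol arrays, where Sgk1 was lowest, had the smallest difference in both comparisons.

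Ddit4 encodes an inhibitor of mTORC1, the kinase complex that drives growth, and is induced by glucocorticoids, hypoxia and energy stress. Its log2 signal in LHb, MHb, Sol and MVe was 10.09, 8.99, 11.82 and 11.24 with sevoflurane, against 10.09, 8.73, 10.64 and 10.60 with O2. With propofol it was 9.80, 8.97, 10.59 and 11.26, against 11.63, 10.28, 12.27 and 12.48 with Intralipos. Intralipos stood above every other array of its region, and in LHb and MHb the other 3 treatments lay close together. Propofol minus Intralipos was -1.83, -1.30, -1.69 and -1.22, a mean of -1.51 ± 0.30, that is 2.85-fold lower with propofol. Sevoflurane minus O2 was -0.01, 0.26, 1.18 and 0.64, a mean of 0.52 ± 0.52.

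Nfkbia and Tsc22d3 are the brakes on inflammation. Nfkbia encodes the inhibitor that holds NF-kB in the cytoplasm, and it is itself a target of NF-kB and of glucocorticoids. In LHb, MHb, Sol and MVe its log2 signal was 7.95, 7.73, 7.91 and 8.35 with sevoflurane, against 8.21, 7.57, 7.45 and 7.50 with O2. Propofol arrays had 8.54, 7.48, 8.00 and 8.68, and Intralipos arrays had 9.82, 9.12, 9.30 and 9.40. All 4 Intralipos arrays lay above all 12 others, whichever the region. Propofol minus Intralipos was -1.27, -1.64, -1.30 and -0.72, a mean of -1.23 ± 0.38, and sevoflurane minus O2 was -0.26, 0.16, 0.45 and 0.85, a mean of 0.30 ± 0.47. Nfkbia lay below the 95th percentile of the negative control probes on all 4 sevoflurane, all 4 O2 and 2 of 4 propofol arrays and above it on all 4 Intralipos arrays, so the size of these differences is uncertain.

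Tsc22d3 encodes GILZ, a leucine zipper protein that glucocorticoids induce in many tissues and that binds NF-kB and AP-1. Taking LHb, MHb, Sol and MVe in turn, the log2 signal was 10.54, 10.12, 10.23 and 12.03 with sevoflurane, against 10.99, 10.17, 10.13 and 11.65 with O2. The signals with propofol were 10.93, 10.12, 10.36 and 12.35, against 11.04, 9.98, 10.91 and 12.22 with Intralipos. Unlike the signals of Ddit4 and Nfkbia, these followed the region, and the treatments overlapped. The mean difference was -0.01 ± 0.35 for sevoflurane minus O2 and -0.10 ± 0.33 for propofol minus Intralipos, with signs mixed over regions in both.

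Fkbp5 and Zbtb16 are direct targets of the receptor with roles in its feedback and in transcription. Fkbp5 encodes a co-chaperone that lowers the receptor's affinity for hormone. On the log2 scale the LHb, MHb, Sol and MVe signals came to 8.94, 8.49, 7.73 and 7.18 with sevoflurane, against 8.41, 8.54, 7.86 and 6.90 with O2. With propofol they were 7.89, 8.01, 8.18 and 7.07, against 8.18, 8.40, 7.85 and 6.86 with Intralipos. The groups overlapped in every comparison, and the means were 0.16 ± 0.30 for sevoflurane minus O2 and -0.04 ± 0.36 for propofol minus Intralipos. After propofol the habenula differences were -0.29 and -0.40, while those of the hindbrain were 0.33 and 0.20.

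Zbtb16 encodes the transcriptional repressor PLZF. Its log2 signal in LHb, MHb, Sol and MVe was 7.50, 6.99, 7.52 and 7.11 with sevoflurane, against 6.81, 6.92, 7.70 and 6.92 with O2. Propofol arrays had 6.62, 5.84, 7.12 and 6.13, and Intralipos arrays had 6.31, 5.65, 6.85 and 5.78. Propofol was a little above Intralipos in 4 of 4 regions, with a mean of 0.28 ± 0.07, the narrowest spread among the members, and sevoflurane minus O2 averaged 0.19 ± 0.37. As deposited, its propofol and Intralipos arrays lay below its sevoflurane and O2 arrays in every region, but after quantile normalization the LHb propofol array (6.79) lay above the LHb O2 array (6.64).

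Pdk4 encodes pyruvate dehydrogenase kinase, which turns cells from glucose towards fatty acid oxidation and is induced by fasting, fatty acids and glucocorticoids. In LHb, MHb, Sol and MVe its log2 signal was 7.17, 5.74, 5.98 and 6.56 with sevoflurane, against 6.24, 5.48, 6.36 and 6.66 with O2. The signals with propofol were 7.22, 5.84, 6.82 and 7.05, against 7.89, 7.14, 6.86 and 8.04 with Intralipos. Intralipos was highest in every region, by little in Sol. Propofol minus Intralipos was -0.67, -1.31, -0.03 and -0.99, a mean of -0.75 ± 0.54, and sevoflurane minus O2 was 0.93, 0.26, -0.39 and -0.10, a mean of 0.18 ± 0.57.

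Cdkn1a, Errfi1 and Lcn2 differed mainly between sevoflurane and O2. Cdkn1a encodes p21, the cell cycle inhibitor induced by p53 and by glucocorticoids. Taking LHb, MHb, Sol and MVe in turn, the log2 signal was 6.01, 6.35, 5.38 and 7.14 with sevoflurane, against 5.26, 4.93, 5.61 and 5.77 with O2. With propofol it was 6.32, 5.88, 5.28 and 6.51, against 6.07, 5.48, 5.80 and 6.23 with Intralipos. Sevoflurane was above O2 in LHb, MHb and MVe and below it in Sol, a mean of 0.83 ± 0.76, and propofol had the same signs by region with a mean of 0.10 ± 0.42.

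Errfi1 encodes MIG6, an inhibitor of the EGF receptor. On the log2 scale the LHb, MHb, Sol and MVe signals came to 9.15, 8.51, 8.87 and 10.92 with sevoflurane, against 8.70, 7.66, 9.18 and 9.29 with O2. Propofol arrays had 9.19, 8.92, 9.69 and 10.38, and Intralipos arrays had 9.46, 8.89, 9.26 and 10.92. Sevoflurane minus O2 had the sign pattern of Cdkn1a, 0.45, 0.85, -0.31 and 1.63, with a mean of 0.66 ± 0.81, while propofol minus Intralipos averaged -0.09 ± 0.42 with mixed signs. Errfi1 lay below the 95th percentile of the negative control probes on 3 of 4 O2 arrays and 1 of 4 sevoflurane arrays. The MVe O2 array, from which the 1.63 was taken, had the highest such percentile, 9.34. The size of the sevoflurane minus O2 differences is thus uncertain.

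Lcn2 encodes lipocalin 2, a secreted iron-binding protein of acute inflammation that reactive astrocytes and blood vessels make. Its log2 signal in LHb, MHb, Sol and MVe was 4.84, 5.94, 5.79 and 6.22 with sevoflurane, against 4.65, 4.47, 4.98 and 5.31 with O2. The signals with propofol were 5.17, 5.33, 5.28 and 5.29, against 5.14, 5.21, 5.13 and 5.48 with Intralipos. Sevoflurane was above O2 in 4 of 4 regions, with a mean of 0.85 ± 0.52, and propofol minus Intralipos averaged 0.03 ± 0.16. These are dim signals: the probe sets named as negative controls had a median between 4.57 and 5.04 per array and a 95th percentile between 8.09 and 9.34, and Lcn2, Cdkn1a, Pdk4 and Zbtb16 lay below their array's percentile on every array. Fkbp5 lay below it on 15 of 16 arrays, Nfkbia on 10 of 16 and Errfi1 on 4 of 16, while Sgk1, Ddit4 and Tsc22d3 lay above it on all.

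**Figure D2:**
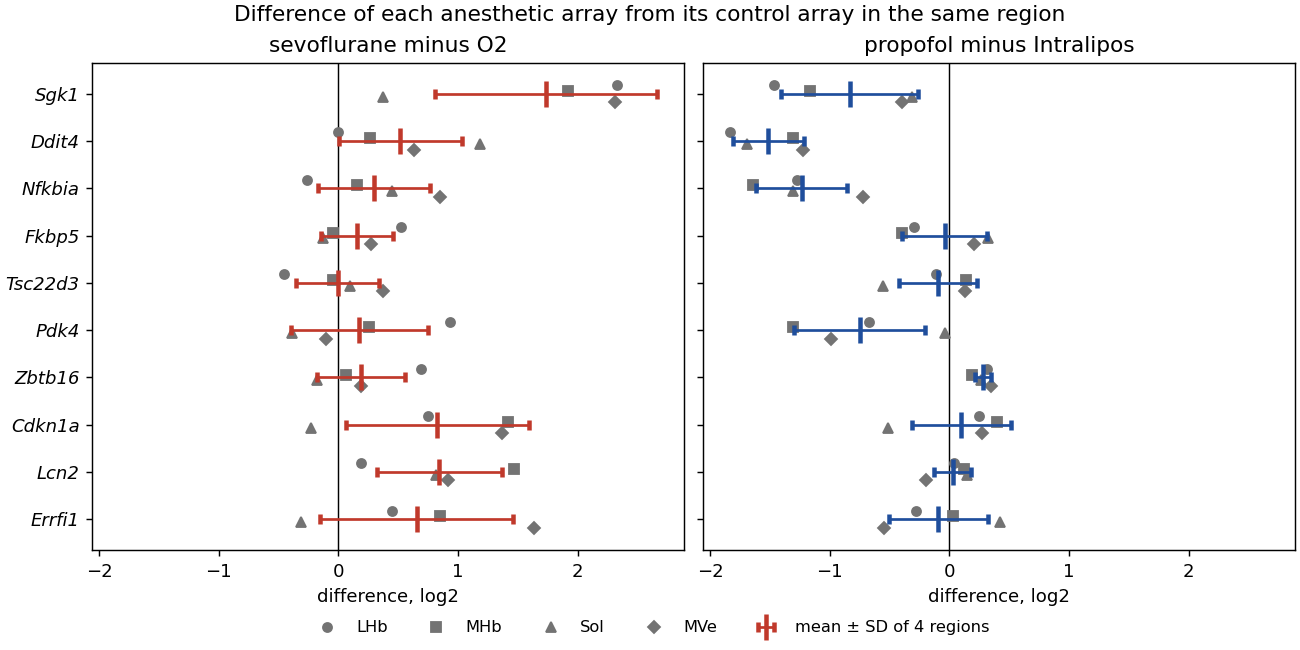
Log2 difference (horizontal axes) of each anesthetic array from its control array in the same region for the 10 genes, sevoflurane minus O2 on the left and propofol minus Intralipos on the right; grey points are single regions and bars are the mean ± SD of 4 regions. Sgk1 reaches 1.74 on the left, and Ddit4 and Nfkbia lie at -1.51 and -1.23 on the right with all 4 regions below 0.

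Counted over the members, sevoflurane was above O2 in 4 of 4 regions for 2 genes, Sgk1 and Lcn2, where 7.18% of all genes were, and below it in 4 of 4 for 0 (6.47% of all genes). Propofol was below Intralipos in 4 of 4 for 4 genes, Sgk1, Ddit4, Nfkbia and Pdk4 (6.68% of all genes), and above it for 1, Zbtb16 (8.36%). The choice of members used these contrasts, so nothing is read from the counts.

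Whether the anesthetic or its control carried a difference was described in 2 ways. The first took each array's signal minus the mean of its region over the 4 treatments. For Ddit4 this position was -0.06 with sevoflurane, -0.58 with O2, -0.44 with propofol and 1.07 with Intralipos, and for Nfkbia it was -0.33, -0.63, -0.14 and 1.10 in that order. Pdk4 stood at -0.33, -0.51, 0.04 and 0.79. As deposited, Ddit4 and Nfkbia had 1 treatment away from the rest, the lipid vehicle, and Pdk4 did so less clearly. After quantile normalization Pdk4 stood at -0.50, -0.67, 0.20 and 0.97 and Nfkbia at -0.51, -0.79, 0.04 and 1.26. On that scale propofol also lay above sevoflurane and O2 in both genes. Sgk1 had both controls at the ends, as deposited at 0.56 with sevoflurane, -1.18 with O2, -0.11 with propofol and 0.73 with Intralipos.

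Cdkn1a, Lcn2 and Errfi1 had O2 at the low end. Cdkn1a stood at 0.35 with sevoflurane, -0.48 with O2, 0.12 with propofol and 0.02 with Intralipos, and Lcn2 at 0.43, -0.41, 0.00 and -0.03 in that order, so for Lcn2 sevoflurane lay about as far above the propofol and Intralipos arrays as O2 lay below them. Errfi1 stood at 0.05, -0.61, 0.23 and 0.32. Fkbp5 (from -0.12 to 0.18) and Tsc22d3 (from -0.13 to 0.18) had no treatment away from the rest. In Zbtb16 the array sets lay apart as deposited, at 0.55 with sevoflurane and 0.35 with O2 and at -0.31 with propofol and -0.59 with Intralipos.

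These positions compare arrays of both sets, whose offset on the deposited scale was given above. By the percentile of a gene among all genes of its array, which no such offset can move, Intralipos was the highest treatment in 4 of 4 regions for 4 members, Sgk1, Ddit4, Nfkbia and Pdk4, where 1.52% of all genes were. O2 was the lowest in 4 of 4 for 2 members, Sgk1 and Lcn2 (0.911% of all genes). Because the choice of members used differences that enter these ranks, nothing is read from either count. After quantile normalization of all arrays together, Intralipos minus O2 was 2.13 for Sgk1, 2.05 for Nfkbia, 1.91 for Ddit4, 1.64 for Pdk4 and 1.20 for Errfi1. Propofol minus sevoflurane on that scale was -0.43 for Sgk1, 0.55 for Nfkbia, -0.12 for Ddit4, 0.70 for Pdk4 and 0.49 for Errfi1, so in each of the 5 genes the controls lay farther apart than the anesthetics. Treatment and array set cannot be told apart in these values either.

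The other way set each arm against the mean of the other array set in the same region, also after quantile normalization. In the propofol comparison the control lay farther from that mean than the anesthetic for 8 of 10 members, where 50.8% of all genes did so, and also for 8 of 10 as deposited (51.3%). Ddit4 lay at 0.13 ± 0.45 with propofol and 1.66 ± 0.25 with Intralipos, Nfkbia at 0.69 ± 0.38 and 1.91 ± 0.17, Pdk4 at 0.78 ± 0.17 and 1.56 ± 0.36, and Sgk1 at 0.44 ± 0.36 and 1.27 ± 0.46 (SD, n = 4 regions), the control being farther in 4 of 4 regions for each of these. In the sevoflurane comparison the control was farther for 8 of 10 on this scale (47.1% of all genes) and for 6 of 10 as deposited (45.8%). The members were chosen on differences that enter these distances, so nothing is read from the counts. Sgk1 lay at 0.01 ± 0.21 with sevoflurane and -1.72 ± 0.75 with O2, Cdkn1a at -0.03 ± 0.50 and -0.86 ± 0.43, Lcn2 at 0.15 ± 0.49 and -0.69 ± 0.29, and Errfi1 at -0.54 ± 0.40 and -1.15 ± 0.44. The arm that lay farther changed with the scale for Lcn2 (0.44 with sevoflurane and -0.40 with O2 as deposited) and for Fkbp5 (0.28 and 0.12 as deposited, -0.08 and -0.21 after quantile normalization).

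**Figure D3:**
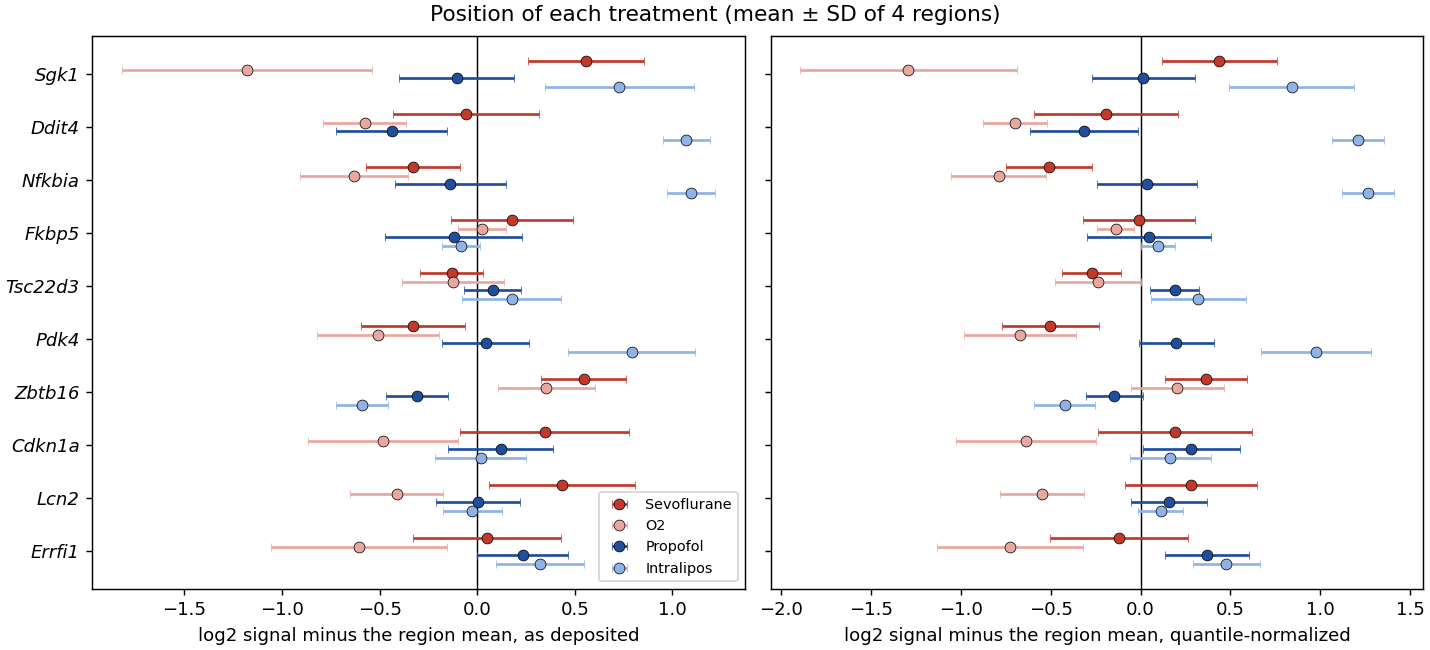
Position of each treatment for the 10 genes: log2 signal minus the mean of its region over 4 treatments (horizontal axes), as deposited on the left and quantile-normalized on the right, as mean ± SD of 4 regions. As deposited, Intralipos lies far right of the rest for Ddit4 (1.07) and Nfkbia (1.10) and less far for Pdk4 (0.79), and O2 far left for Sgk1 (-1.18).

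Markers of cell types and regions were set beside the treatment differences, and their part in the members' values was not tested. The medial habenula markers had a median difference in LHb of 0.49 for sevoflurane minus O2 and 0.64 for propofol minus Intralipos. In the second they ran from -0.50 for Chat and -0.01 for Slc18a3 to 1.37 for Chrnb4 and 1.49 for Tac3. These LHb arrays thus differed in some, not all, of the genes that mark the neighbouring MHb, where Sgk1 and Ddit4 were lower. The LHb propofol differences of Sgk1 and Ddit4 were -1.47 and -1.83, and their LHb sevoflurane differences were 2.33 and -0.01. In MHb the same medians were -0.04 and 0.29, and Ddit4 was at -1.30 after propofol there. Hindbrain markers had a median in Sol of -0.59 for sevoflurane minus O2 and 0.80 for propofol minus Intralipos, and in MVe of -0.21 and 0.25. Endothelial markers, genes of the cells that line vessels, had a median difference of 0.00 over 8 genes for sevoflurane minus O2, with array means from 7.18 to 8.89 with sevoflurane and 7.29 to 8.75 with O2. For propofol minus Intralipos the median was -0.05, with array means from 6.80 to 8.36 with propofol and 6.95 to 8.32 with Intralipos. Oligodendrocytes are a known site of Sgk1 expression in mice, and their markers had a median of -0.28 after sevoflurane, with 2 of 9 above 0 (array means 11.5 to 14.7 with sevoflurane and 11.5 to 15.1 with O2), and 0.08 after propofol, with 7 of 9 above 0. Choroid plexus markers were above 0 in 9 of 9 after propofol, with a median of 0.47 and a median by region of -0.11, 0.22, 1.07 and 1.07 in LHb, MHb, Sol and MVe. Among these markers Ttr ran from -0.235 in LHb to 6.10 in Sol. The propofol minus Intralipos differences of Ddit4 and Nfkbia were below 0 in all of these regions, and whether choroid plexus tissue had a part in them was not tested. Astrocyte markers had medians of -0.06 and -0.12, and blood cell markers of 0.13 and -0.14, in the sevoflurane and the propofol comparison.

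Lists of related genes that do not include the members were compared in the same way. In the linear model across all genes (limma, adjusted p under 0.05), 0 genes of any list passed for sevoflurane minus O2 (0.0% of all genes) or for propofol minus Intralipos (0.02%), where 751 and 1040 genes had an unadjusted p under 0.05. Of 27 other glucocorticoid-induced genes, 21 were above 0 for sevoflurane minus O2, with a median of 0.17, and 21 were below 0 for propofol minus Intralipos, with a median of -0.21. Over all genes the median was 0.01 in both comparisons, with 52.8% and 52.3% above 0. The lists were chosen with earlier results of these data known, so they are no independent check of the members. Of the 27 genes, 9 lay below the negative control percentile on every array. The largest differences after sevoflurane were those of the phosphatase gene Dusp1 (1.49 ± 1.18), the clock gene Per1 (0.67 ± 0.33) and the metallothionein gene Mt2A (0.54 ± 0.58), and after propofol those of the growth arrest gene Gadd45g (-0.98 ± 0.89), the repressor gene Bcl6 (-0.57 ± 0.46) and Tob2 (-0.54 ± 0.43; SD, n = 4 regions).

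**Figure D4:**
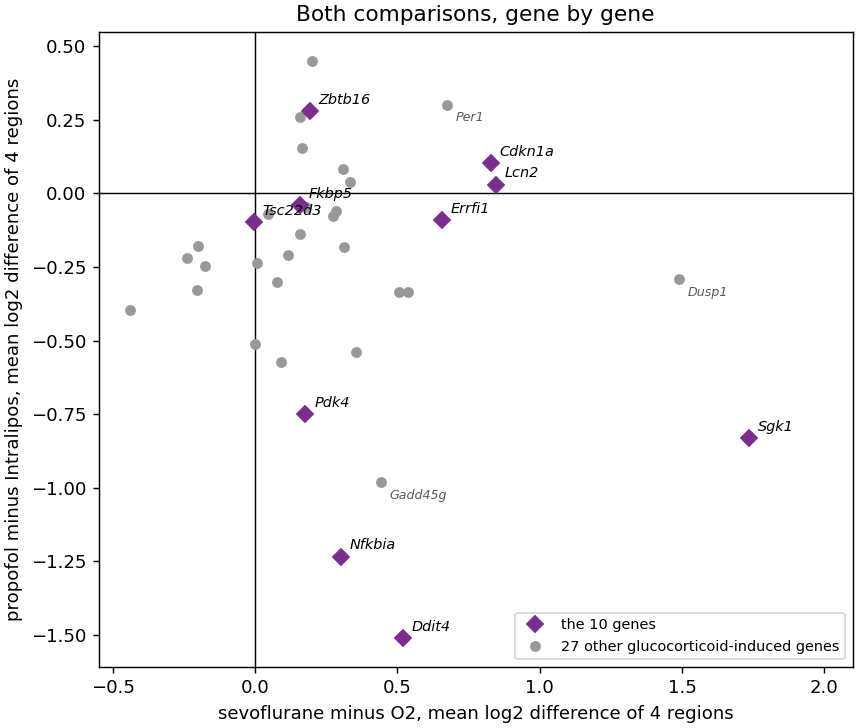
Mean log2 difference over 4 regions for sevoflurane minus O2 (horizontal axis) and propofol minus Intralipos (vertical axis) of the 10 genes (diamonds) and 27 other glucocorticoid-induced genes (grey circles). Sgk1 lies at 1.74 and -0.83, and Ddit4 and Nfkbia lie lowest on the vertical axis.

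The receptor's own machinery was nearly level. Of 11 measured genes, 5 were above 0 for sevoflurane minus O2 (median -0.01) and 8 for propofol minus Intralipos (median 0.07), and the receptor gene Nr3c1 was at -0.01 ± 0.16 and -0.17 ± 0.20. The hormone gene Crh, which drives the stress axis from the hypothalamus, had -0.19 ± 0.85 and 0.46 ± 0.27, Hsd11b1, whose enzyme regenerates active hormone, had -0.17 ± 0.36 in the first comparison, and the coactivator gene Ncoa2 had 0.17 ± 0.23 and 0.17 ± 0.47.

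The other pathways in which the members take part are given by their medians, beside 0.01 for all genes. NF-kB targets, the partners of Nfkbia, had medians of 0.01 and 0.00 over 15 genes, with 8 above 0 in both comparisons, but 11 of the 15 lay below the negative control percentile on every array, and the list's array means were 5.44 to 6.16, so little can be read from these medians. The chemokine gene Ccl2 was at 1.30 ± 1.16 after sevoflurane and 0.31 ± 0.40 after propofol, the NF-kB subunit gene Nfkb2 at 0.33 ± 0.36 and -0.42 ± 0.64, the cytokine gene Il6 at -0.36 ± 0.56 after sevoflurane, and the cytokine gene Il1b at -0.26 ± 0.16 after propofol. Hypoxia-inducible genes, a group to which Ddit4 is often counted, had medians of -0.07 and 0.00 over 12 genes, with 5 and 6 above 0, and the glucose transporter gene Slc2a1 was at 0.36 ± 0.17 after sevoflurane and the vasodilator gene Adm at -0.17 ± 0.27 after propofol.

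Genes of the integrated stress response had medians of 0.08 and -0.04 over 12 genes, with 7 and 6 above 0, with Atf3 at 0.60 ± 0.55 after sevoflurane and Sesn2 at 0.36 ± 0.55 after propofol. Targets of p53, the partners of Cdkn1a, had medians of 0.00 and -0.02 over 11 genes, with 5 above 0 in both, with Tp53inp1 at 0.42 ± 0.22 after sevoflurane and Phlda3 at -0.32 ± 0.60 after propofol. FoxO and fasting-responsive genes, the partners of Pdk4, had medians of 0.08 and -0.14 over 11 genes, with 8 and 4 above 0. In that group Angptl4, a target of fatty acids and their PPAR receptors, was at -0.44 ± 0.37 after sevoflurane and -0.39 ± 0.29 after propofol, and the fatty acid oxidation gene Cpt1a was at -0.34 ± 0.20 after propofol, lower than with Intralipos in 4 of 4 regions. Bcl6, Irs2, Klf15 and Angptl4 of this group are also among the other glucocorticoid-induced genes above, so the medians of both lists are not separate observations.

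The brain regions differed widely in these genes, and here the test was independent of the choice. In the fit of treatment and region to 16 arrays, 6 members differed between habenula (LHb and MHb) and hindbrain (Sol and MVe), where 38.1% of all genes did. LHb and MHb differed in 7 members (28.5% of all genes), and Sol and MVe in 7 (35.2%). Errors below are standard errors, and p-values are limma's, two-sided and adjusted over 15037 genes by the Benjamini-Hochberg method. These p-values rest on the spread over treatments and regions, not over animals. Which regions share a rat is not known, so the p-values may be too small.

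Sgk1 averaged 12.47 ± 1.22 in LHb, 12.07 ± 1.12 in MVe, 10.47 ± 0.97 in MHb and 9.13 ± 0.22 in Sol (SD, n = 4 treatments). LHb minus MHb was 2.00 ± 0.28 (adjusted p = 1.78e-05 by limma) and Sol minus MVe was -2.94 ± 0.28 (adjusted p = 1.48e-07 by limma), so both pairs held a high and a low nucleus, and habenula minus hindbrain was 0.87 ± 0.20 (adjusted p = 0.00172). LHb and MVe, its neighbours at the top, differed by 0.40 with the sign shared by 3 of 4 treatments. Ddit4 followed another map, with 11.39 ± 0.78 in MVe, 11.33 ± 0.85 in Sol, 10.40 ± 0.83 in LHb and 9.24 ± 0.70 in MHb. Habenula minus hindbrain was -1.54 ± 0.14 (5.06e-08) and LHb minus MHb was 1.16 ± 0.20 (0.000147), and Sol minus MVe did not pass (-0.06 ± 0.20, 0.843).

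Tsc22d3 averaged 12.06 ± 0.30 in MVe, above every array of the other regions, then 10.88 ± 0.23 in LHb, 10.41 ± 0.35 in Sol and 10.10 ± 0.08 in MHb. Sol minus MVe was -1.65 ± 0.17 (5.46e-07), habenula minus hindbrain -0.75 ± 0.12 (7.53e-05) and LHb minus MHb 0.78 ± 0.17 (0.00200). Errfi1 had the same order of MVe at the top (10.37 ± 0.77) and MHb at the bottom (8.50 ± 0.59), with Sol minus MVe at -1.13 ± 0.23 (0.000800), habenula minus hindbrain at -1.002 ± 0.163 (7.11e-05) and LHb minus MHb at 0.63 ± 0.23 (0.04996). Nfkbia, whose Intralipos arrays lay above all others while the other treatments overlapped, differed little by region. It averaged 8.63 ± 0.83 in LHb, 8.48 ± 0.79 in MVe, 8.17 ± 0.79 in Sol and 7.98 ± 0.77 in MHb, and passed for LHb minus MHb alone (0.66 ± 0.19, 0.0118).

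Fkbp5 was the member higher in habenula together with Sgk1. It averaged 8.36 ± 0.24 in MHb, 8.35 ± 0.45 in LHb, 7.91 ± 0.19 in Sol and 7.002 ± 0.145 in MVe, with habenula minus hindbrain at 0.90 ± 0.13 (2.42e-05) and Sol minus MVe at 0.90 ± 0.19 (0.000955), while LHb and MHb differed by -0.01 ± 0.19. Zbtb16 was highest in Sol (7.30 ± 0.39), with Sol minus MVe at 0.82 ± 0.17 (0.000748), LHb minus MHb at 0.46 ± 0.17 (0.0464) and habenula minus hindbrain at -0.31 ± 0.12 (0.0445). Pdk4 averaged 7.13 ± 0.68 in LHb, 7.08 ± 0.68 in MVe, 6.50 ± 0.42 in Sol and 6.05 ± 0.74 in MHb, with LHb minus MHb at 1.08 ± 0.21 (0.000513) and Sol minus MVe at -0.57 ± 0.21 (0.0387). Cdkn1a was highest in MVe (6.41 ± 0.57) and lowest in Sol (5.52 ± 0.23) and passed for Sol minus MVe (-0.89 ± 0.23, 0.00563). Lcn2 ran from 5.58 ± 0.44 in MVe to 4.95 ± 0.25 in LHb and passed in none of the 3 contrasts, with -0.34 and an adjusted p of 0.0588 for habenula minus hindbrain. All 5 of these genes are dim: Fkbp5 lay below the negative control percentile on 15 of 16 arrays and the others on all 16. Nfkbia lay below it on 10 of 16, so the size of the region differences of these genes is uncertain. Between neighbouring regions in each gene's order the arrays overlapped for every member, except Tsc22d3 between MVe and LHb and Fkbp5 between Sol and MVe.

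**Figure D5:**
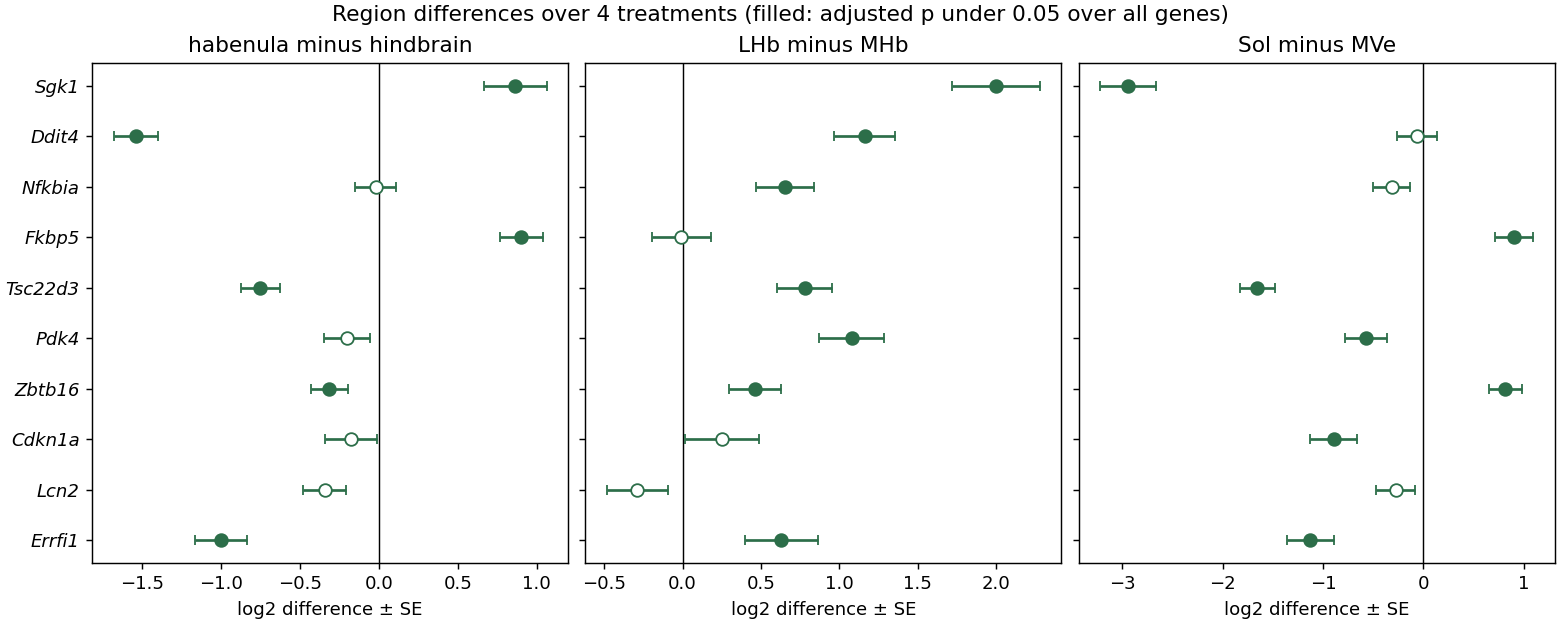
Log2 difference ± SE (horizontal axes) between regions for the 10 genes, from a fit to 16 arrays with 4 treatments in the place of replicates; filled points have an adjusted p under 0.05 over all genes. LHb minus MHb is above 0 in all of its 7 filled genes, while Sol minus MVe runs from -2.94 for Sgk1 to 0.90 for Fkbp5.

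Within each array set the same contrasts kept their sign for all members that had passed. In the sevoflurane and O2 arrays alone 5 members passed for habenula minus hindbrain (30.7% of all genes), 3 for LHb minus MHb (18.1%) and 3 for Sol minus MVe (25.7%), the last a share near that of all genes. In the first of these Sgk1 missed the threshold (adjusted p = 0.0577 by limma), as did Zbtb16, and Lcn2 passed (0.0436). In the propofol and Intralipos arrays alone 5 members passed for habenula minus hindbrain (23.6% of all genes), 6 for LHb minus MHb (18.0%) and 6 for Sol minus MVe (21.5%). LHb minus MHb for Sgk1 was 1.86 in the sevoflurane and O2 arrays and 2.14 in the propofol and Intralipos arrays, and Sol minus MVe was -2.51 and -3.37. Sol minus MVe for Tsc22d3 was -1.66 and -1.65, habenula minus hindbrain for Ddit4 was -1.60 and -1.48, and habenula minus hindbrain for Fkbp5 was 1.18 and 0.63, in the same order of sets. Some calls rested on few arrays: Errfi1 and Zbtb16 for LHb minus MHb each lost theirs in 11 of the 16 fits without 1 array, as did Zbtb16 for habenula minus hindbrain, and neither Zbtb16 call held after quantile normalization. Pdk4 for Sol minus MVe lost its call in 5 of 16, and Nfkbia for LHb minus MHb in 2 of 16, those without the LHb O2 or the MHb propofol array.

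Cell type markers differed between the regions as well, and their part in the members' region differences was not tested. For LHb minus MHb the median was 1.84 for oligodendrocyte markers (9 of 9 above 0), 2.96 for astrocyte markers (7 of 8) and 1.17 for endothelial markers (8 of 8). For Sol minus MVe it was -2.81 for oligodendrocyte markers (0 of 9 above 0), -0.69 for endothelial markers (0 of 8), 0.79 for astrocyte markers (6 of 8) and 2.05 for microglia markers (8 of 8). Of these markers, 4 of 8 endothelial and 2 of 8 microglia genes lay below the negative control percentile on every array. In bulk tissue, fewer cells of a type and less RNA per cell cannot be told apart. Of the 27 other glucocorticoid-induced genes, 20 were above 0 for LHb minus MHb and 7 below. At an adjusted p under 0.05 by limma, 14 passed as higher in LHb and 4 as lower, where 28.5% of all genes passed in either direction. For Sol minus MVe 13 were above 0 and 14 below, and 6 passed as higher and 7 as lower (35.2% of all genes passed).

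Whether an anesthetic's difference from its control depended on the region pair was tested as an interaction, the effect in habenula minus that in hindbrain. For sevoflurane 0 members passed (limma, 0.0% of all genes, with 803 genes at an unadjusted p under 0.05). The largest were Pdk4 (0.84 ± 0.37), Ddit4 (-0.78 ± 0.37) and Nfkbia (-0.70 ± 0.33), and the lowest adjusted p was 0.927. For propofol 0 members passed as well (0.0% of all genes, 816 at an unadjusted p under 0.05), with Sgk1 at -0.96 ± 0.52 and Fkbp5 at -0.61 ± 0.31 and a lowest adjusted p of 0.918. With 6 residual degrees of freedom the errors were wide, and differences of this size were not detectable.

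Likeness between members was the cosine of a pair's 8 differences between an anesthetic array and its control array, a value of 1 meaning the same pattern, and it is a description over 8 array pairs that share regions. Ddit4 and Nfkbia had 0.94. Sgk1, Cdkn1a, Lcn2 and Errfi1 were alike as a group of 4, with cosines between 0.66 (Sgk1 and Lcn2) and 0.77 (Sgk1 and Errfi1) in all 6 pairs, while the lowest was that of Ddit4 and Zbtb16 at -0.56. Among all genes at or above the median signal, the nearest to Sgk1 were Tsen34 (0.95), Mfap3l (0.91) and Ubqln4 (0.90). Those nearest to Ddit4 were Eif2b3 (0.98), Eln (0.96) and Apc (0.95), and Eif2b3 (0.94) was also the nearest to Nfkbia, followed by Ddit4 itself and Anxa3 (0.92), with 1 gene of a placeholder name passed over.

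For the remaining members the nearest genes were Gls2 (0.95), Igf2r and Ankrd34b (0.93 each) to Fkbp5, Ppm1f (0.91), Pdpr and Ddx6 (0.90 each) to Tsc22d3, and Polr2h (0.96), Map2k7 and Polr1d (0.90 each) to Pdk4. They were Thy1 (0.96), Amigo2 and Bgn (0.94 each) to Zbtb16 and Sertm1 (0.96), Fgfr2 (0.92) and Sidt2 (0.91) to Cdkn1a. To Lcn2 they were Usp31 (0.93), Sgpp2 and Inppl1 (0.92 each), and to Errfi1 Epha7 (0.98), Wasf2 (0.94) and Dvl3 (0.93). How often such cosines arise by chance among so many genes was not tested, and no shared function is read from them.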

How the data were processed

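Total RNA of laser-cut tissue was measured on 16 Affymetrix arrays, with cDNA made by a whole-transcript kit, per the labels' protocols. The authors deposited log2 signals. Per the submitters' processing notes the software was Affymetrix Expression Console, version 1.3.0. How probes were summarized and on which build is not given in the sources used here, nor is the log scale, which was taken from the values. Of 24834 probe sets, 1646 were controls, 15049 had 1 gene symbol in the platform annotation, 0 had several and 8139 had none. The brightest probe set of each gene over all arrays was kept, with no filter and no further normalization, which gave 15037 genes. With 1 array per region and treatment, the number of arrays limits the precision.

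Region differences were tested with limma 3.58.1 in R 4.3.3 (treatment and region as terms, 9 residual degrees of freedom), and interactions in a fit with 6. P-values were adjusted over all genes by the Benjamini-Hochberg method at a threshold of 0.05. The fits were tested on simulated data. Differences, ranks and figures were made with pandas 2.3.3, numpy 2.4.6 and matplotlib 3.10.9 in Python 3.11.15. The replicate numbers given to the arrays of a group stand for its regions, so region is already a term of each fit.

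The members, the further gene lists and the tests were chosen with earlier results of these data known. The naming rule took all members, up to 3 genes of each pathway list with the largest mean difference in each anesthetic comparison, described here in part, and the 3 genes most like each member. Alternatives were another normalization, probe rule, filter or variance estimate, each array set alone and each array left out. The distance of each arm from the other array set and centring each array on its median for the treatment positions were added after seeing the data. Sequences and motif searches used RefSeq promoters of GRCr8.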

Additional observations from a re-analysis of the deposited data

Results flagged for a closer look

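Fkbp5, Tsc22d3 and Pdk4 had treatment differences of opposite sign in the habenula and the hindbrain, with both nuclei of each pair on the same side of 0. For Fkbp5, propofol minus Intralipos was -0.6104 in habenula minus hindbrain on the log2 scale, for Tsc22d3 sevoflurane minus O2 was -0.4887, and for Pdk4 sevoflurane minus O2 was 0.8410. The interaction test of limma did not call them, at adjusted p-values of 0.918, 0.953 and 0.927. Some of the values lay near 0, among them -0.05 for Tsc22d3 in MHb and -0.10 for Pdk4 in MVe. Pdk4 lay below the negative control percentile on all 16 arrays and Fkbp5 on 15. How often such a split of signs arises by chance or over all genes was not tested. In the Cdkn1a propofol minus Intralipos differences the Sol pair, at -0.5136, stood apart from the other regions by Dixon's criterion for 4 values. Of 20 such sets of 4 differences checked, chance flags about 1 in 20 by that criterion, a rate that does not cover the split of signs.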

How the results depend on the processing

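The alternatives were run on the counts and on each member's region contrasts, treatment differences and the interactions given above. Members past the threshold for LHb minus MHb numbered 7, but 3 in the sevoflurane and O2 arrays alone and from 4 to 7 without 1 array. For Sol minus MVe they numbered 7, but 4 of 6 tested with dim genes left out, which removes members from the test, and 3 in the sevoflurane and O2 arrays alone. Over all genes the propofol and Intralipos arrays alone gave 3552 calls for habenula minus hindbrain, 2714 for LHb minus MHb and 3233 for Sol minus MVe, and the sevoflurane and O2 arrays alone gave 2721 for LHb minus MHb, against 5736, 4289 and 5300 from all arrays; these fits hold fewer samples. The sevoflurane interaction gave from 0 to 1 genes without 1 array. Reversed signs all belonged to contrasts that were not called. Nfkbia, habenula minus hindbrain, was 0.0246 with each array centred on its median and 0.0635 in the sevoflurane and O2 arrays alone, and ran from -0.0983 to 0.0597 without 1 array. In the sevoflurane and O2 arrays alone Fkbp5, LHb minus MHb, was 0.1611, Cdkn1a, LHb minus MHb, was -0.0085, and Ddit4, Sol minus MVe, was 0.3074. Without 1 array Fkbp5 ran from -0.1873 to 0.1483 and Ddit4 from -0.3080 to 0.0717 in those contrasts. The cause was not tested. Among single members, 35 of the LHb minus MHb, 10 of the Sol minus MVe and 18 of the habenula minus hindbrain refits lost a call, most of them for Zbtb16, Errfi1 and Pdk4, and 5 gained one, each for Lcn2. Without 1 region the mean treatment difference changed sign for 2 of 10 members in the sevoflurane comparison, Tsc22d3 (from -0.1328 to 0.1435) and Pdk4 (from -0.0766 to 0.3642), and for 4 of 10 in the propofol comparison, Errfi1, Fkbp5, Lcn2 and Tsc22d3. Under the other scales 0 changed sign. The probe rule could not change one, since each member has 1 probe set. No paired analysis was possible beyond this because the replicate numbers stand for regions, which every fit already holds as a term.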

Other observations

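The 2 controls, which the study did not set against each other by design, lay farther apart than the 2 anesthetics for 8 of 10 members as deposited, Fkbp5 and Lcn2 being the exceptions, and for 10 of 10 after quantile normalization. Over all genes this held for 47.6% as deposited and 48.2% after quantile normalization. As deposited, Intralipos minus O2 was higher than that of 99.99% of genes for Sgk1, 99.98% for Nfkbia, 99.97% for Ddit4, 99.92% for Pdk4 and 99.77% for Errfi1, and Intralipos was above O2 in 4 of 4 regions for each of them. For Zbtb16 it was higher than that of 3.86% of genes. Propofol minus sevoflurane was higher than that of 13.9% of genes for Sgk1, 85.8% for Nfkbia, 33.2% for Ddit4, 94.1% for Pdk4 and 85.3% for Errfi1. Array set and treatment cannot be told apart in these values. The choice of members also used differences that enter these gaps, so nothing is read from the counts or ranks.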
